A study of Mus musculus with 4 samples.

Results

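The 10 genes described here mark the endothelium of arteries and arterioles: Gkn3, Bmx, Sema3g, Stmn2, Alpl, Lypd1, Cdh13, Efnb2, Gja4 and Gja5. They were taken by symbol from the 32285 genes of the count tables, as known arterial genes, with Stmn2 added because it led an arterial group of cells in an earlier reading of these data. Stmn2 was thus chosen by its UMI level in these cells, and the height of the members in arterial cells is a description and not a finding. The series profiled single cells of sensory cortex from male C57BL/6N mice, 10 months old. The groups were sham surgery with an isotype control antibody, distal middle cerebral artery occlusion (dMCAO stroke) with the isotype control, dMCAO with anti-VCAM1 and dMCAO with anti-VLA4. All 4 groups received their antibody for 10 weeks, and the tissue was the lesion with about 2 mm of cortex around it. VCAM1 is an adhesion molecule on endothelium and VLA4 the integrin on leukocytes that binds it. Each group was 1 library made from tissue pooled over 4 to 5 mice, so no spread between animals can be given, there is no test between groups, and every interval below covers counting error only. Cells were stained for CD31, carried by endothelium, and CD45, carried by leukocytes, and which fractions were collected is not given in the sources used here.

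Arteries, capillaries and veins of the brain form a continuous series of endothelial states. In arterial endothelium, VEGF and Notch signalling hold a programme that includes the ligand ephrin B2 (Efnb2), which binds the receptor EphB4 (Ephb4) on venous cells. Arterial cells are coupled by connexin channels, of which Gja4 (connexin 37) and Gja5 (connexin 40) are the best known. Bmx is a cytoplasmic tyrosine kinase of the Tec family, Sema3g a secreted semaphorin read by neuropilins and plexins, Alpl the tissue-nonspecific alkaline phosphatase, and Cdh13 (T-cadherin) a cadherin held in the membrane by a lipid anchor. Lypd1 is a membrane-anchored protein of the Ly6 family, Gkn3 a secreted gastrokine known as a marker of brain arterial endothelium, and Stmn2 (stathmin 2) a tubulin-binding protein best known from neurons.

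The regions just before the starts of Gkn3 and Bmx are printed because Gkn3 differed most between libraries and because Bmx alone held a match to the letters read by the Notch effector RBPJ. Each runs 250 bases up to the start, 5′ to 3′ on the strand of the gene, from RefSeq on GRCm38.p6. The Gkn3 region is chr6:87388936-87389185 and the Bmx region chrX:164258194-164258443, both on the minus strand, and the capitals in Bmx mark the match to TGGGAA.
Gkn3: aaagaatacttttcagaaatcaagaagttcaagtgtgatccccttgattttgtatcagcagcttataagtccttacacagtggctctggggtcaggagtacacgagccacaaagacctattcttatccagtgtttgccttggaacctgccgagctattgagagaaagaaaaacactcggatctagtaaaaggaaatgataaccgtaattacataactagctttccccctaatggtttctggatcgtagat
Bmx: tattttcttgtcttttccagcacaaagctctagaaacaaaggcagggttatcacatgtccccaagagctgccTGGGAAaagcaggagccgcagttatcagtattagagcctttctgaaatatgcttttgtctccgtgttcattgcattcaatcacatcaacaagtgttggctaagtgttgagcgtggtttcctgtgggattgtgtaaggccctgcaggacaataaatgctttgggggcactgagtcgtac
TGGGAA, searched on both strands (TTCCCA on the other), lay at position -178 from the Bmx start and in no other window of the 8 genes with an entry. Of all 32851 RefSeq windows of this length, 21.6% held it, so 1 match among these genes is a description only. Stmn2 and Cdh13 had no entry.

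The libraries held 1516 cells (sham isotype), 2832 (stroke isotype), 4662 (stroke anti-VCAM1) and 6209 (stroke anti-VLA4) after filtering, with 9892316 to 33386331 UMIs (unique molecular identifiers, 1 per captured transcript) in all and a median of 4517 to 5466 per cell. Endothelial-like cells, named from 10 markers such as Cldn5 and Pecam1, numbered 551, 648, 2386 and 3070 in that order, or 36.3%, 22.9%, 51.2% and 49.4% of cells. The sham and stroke isotype libraries shared 59 cell barcodes, against 1 to 8 for the other pairs. In 55 of the 59 the sham copy was the deeper one, with a median over all 59 of 17753 UMIs in the sham and 606 in the stroke isotype library. Of the cells with a barcode found in more than 1 library, 5 and 3 were arterial-like in these libraries, and leaving out all such barcodes moved no share and no ratio in endothelial-like or arterial-like cells beyond its counting interval. The blockade libraries also stood apart from both isotype libraries in makeup: 1 capillary-like group of 1165 cells held 6, 45, 458 and 656 cells of the 4 libraries, and a mixed pericyte and endothelial cluster with no name held 1, 9, 121 and 184. Treatment and library cannot be told apart.

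Most UMIs of 8 members lay in endothelial-like cells. Of the 4714 Gkn3 UMIs in kept cells, 92.0% were endothelial-like, and the share was 92.2% for Bmx, 93.9% for Sema3g, 92.6% for Stmn2, 94.0% for Alpl, 92.6% for Lypd1, 93.2% for Cdh13 and 83.6% for Efnb2. For Efnb2 the share differed by library, at 75.4% in sham isotype, 60% in stroke isotype, 88.9% in anti-VCAM1 and 87.1% in anti-VLA4. Endothelial-like cells were 36.3%, 22.9%, 51.2% and 49.4% of kept cells in that order. The part of this makeup in the Efnb2 share was not tested. Gja4 and Gja5 were less endothelial, Gja4 with 188 of its 336 UMIs (56.0%) in endothelial-like and 129 in pericyte-like cells. Pericyte-like cells carried Gja4 at 119 CPM (UMIs scaled to a fixed total per population) in the stroke isotype library, 118 in anti-VCAM1 and 119.7 in anti-VLA4 (from 2 UMIs in 10 cells, 62.2 in sham isotype), against 4.51 to 5.94 CPM in endothelial-like cells of the 4 libraries. Gja5 had 16 UMIs in all, 62.5% of them endothelial. These 10 UMIs were 2 in sham isotype, 0 in stroke isotype, and 4 in each blockade library, where 3 counts in stroke isotype would have been 1.04 CPM, so no comparison of Gja5 was possible at this depth. Efnb2 was also read in microglia-like cells, at 8.0 CPM in sham isotype, 8.92 in stroke isotype, 4.07 in anti-VCAM1 and 5.52 in anti-VLA4, against 52.0 to 58.8 CPM in endothelial-like cells.

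Within the endothelial-like cells, clustering without the 10 members gave groups named arterial-like, capillary-like and venous-like from other markers (for arteries Mgp, Fbln5, Cytl1, Hey1, Sox17, Vegfc, Dll4 and others, 13 in all). Those markers chose the names, so their levels describe the groups and are no check of them. The arterial list summed to 2420 CPM in sham isotype, 2070 in stroke isotype, 2204 in anti-VCAM1 and 2395 in anti-VLA4 among arterial-like cells, and to 1145 to 1231 CPM among capillary-like cells, with none of the 13 at 0 in any arterial-like population. Capillary markers were not absent from the arterial-like cells, at 7527 to 9403 CPM against 10218 to 12138 CPM in capillary-like cells. Over all libraries, the level in arterial-like over capillary-like cells was 12.4-fold for Gkn3, 7.73-fold for Bmx, 7.37-fold for Cdh13, 6.13-fold for Lypd1, 5.41-fold for Gja4, 4.68-fold for Stmn2, 4.31-fold for Sema3g, 2.29-fold for Alpl and 1.99-fold for Efnb2. The order differed by library, and most arterial-like cells were from the blockade libraries. Cdh13 was 3.50-fold in sham isotype and 12.2-fold in stroke isotype, where Gkn3 was 9.84-fold, and Bmx was 10.1-fold in sham isotype. Alpl and Efnb2 had the smallest folds in every library. Over all libraries Alpl and Efnb2 had 53.8% and 50.9% of their endothelial UMIs in arterial-like cells, against 85.9% for Gkn3, where these cells held 32.1% of all endothelial UMIs. In sham isotype alone Efnb2 did not separate the zones, at 69.7 CPM (51.2 to 92.7) in arterial-like and 62.6 CPM (50.8 to 76.4) in capillary-like cells. In the stroke libraries the arterial-like level of Efnb2 was 86.7, 95.3 and 85.9 CPM and the capillary-like level 45.1, 40.4 and 43.1 CPM (isotype, anti-VCAM1, anti-VLA4), with no overlap of intervals. In venous-like cells Gkn3 was at 3.67 to 20.5 CPM over the 4 libraries. Stmn2 was higher there, at 106 CPM in sham isotype, close to its 110.4 CPM in capillary-like cells of that library, and at 30.7, 50.5 and 30.9 CPM in the stroke libraries. Alpl was at 47.7, 23.9, 31.8 and 59.0 CPM in the same order.

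**Figure D1:**
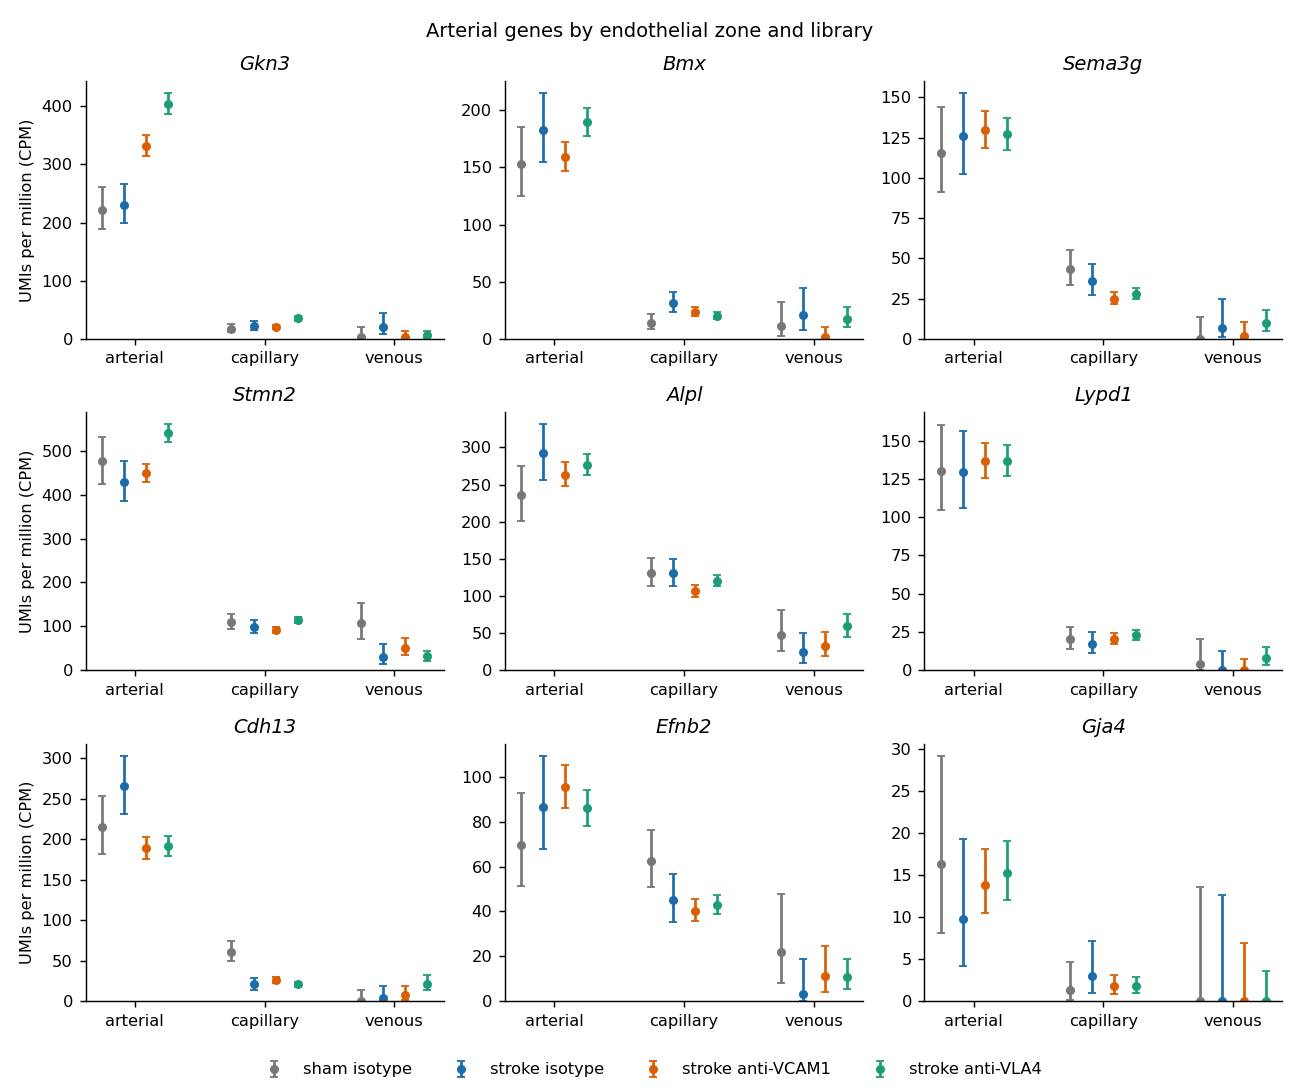
Level of 9 arterial genes (y axis, CPM, linear and starting at 0) in arterial-like, capillary-like and venous-like cells of the 4 libraries. Points are 1 library each and bars are exact Poisson 95% intervals; Gja5 is left out for its 16 UMIs. All 9 genes were highest in arterial-like cells of every library, with Efnb2 in sham isotype the closest to its capillary-like level.

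The arterial-like cells came in 3 sub-clusters that differed in which members they carried. Sub-cluster 6 (350 cells, with 12 of the 13 arterial markers and led by Mgp and Clu, a matrix protein and a secreted chaperone) had the highest level of 8 of the 9 measured members. Sub-cluster 3 (808 cells, 7 markers) and sub-cluster 5 (503 cells, 3 markers) were next. The step from sub-cluster 6 was steep for Gkn3, which stood in sub-clusters 3 and 5 at 38.4% and 29.1% of its level in sub-cluster 6, and for Gja4, at 28.2% and 27.0%. It was shallow for Sema3g (90.7% and 58.6%), Alpl (88.6% and 89.1%) and Cdh13 (89.4% and 62.3%). Efnb2 alone was highest in sub-cluster 3, where it was at 101 CPM over all libraries, and was at 67.6% of that level in sub-cluster 6 and at 75.25% in capillary sub-cluster 0, above its 65.5% in arterial sub-cluster 5. One capillary-like sub-cluster led by interferon-response genes (347 cells) also held Alpl at 59.5%, Stmn2 at 34.5% and Lypd1 at 32.0% of their highest level.

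**Figure D2:**
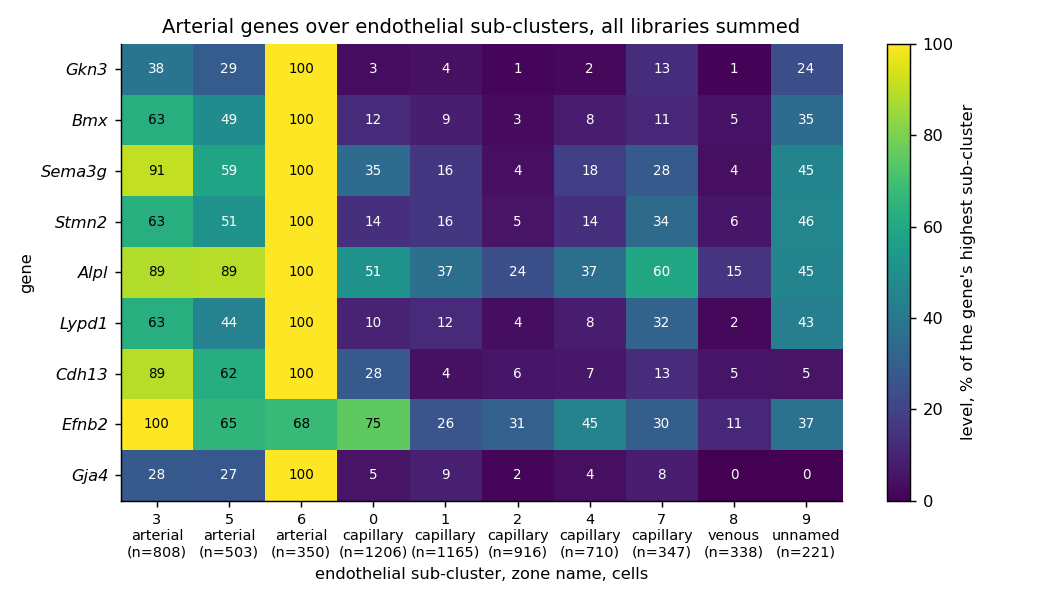
Level of 9 arterial genes (rows) over the 10 endothelial sub-clusters of at least 50 cells (columns, with zone name and number of cells), as a percentage of the gene's highest sub-cluster, all libraries summed. Sub-cluster 6 is at 100% for every gene but Efnb2, which is highest in sub-cluster 3.

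Across those 10 sub-clusters, the genes outside the list whose level followed the mean of the members most closely were Mannr (Pearson r = 0.993), Tmem100 (0.982), Fbln2 (0.981), Shtn1 (0.975), Atp2a3 (0.969), Rad54b (0.962), Gask1b (0.957), Ccnd2 (0.951), Glul (0.950) and Cit (0.949), out of 9437 genes compared. These r values are descriptions over 10 groups of cells that share libraries. Mannr, a noncoding RNA, stood at 64.5 CPM in arterial-like and 4.44 CPM in other endothelial-like cells, and Tmem100, a transmembrane protein of arterial endothelium, at 129 and 15.7 CPM. Of the members themselves, Sema3g followed the mean of the others best (0.970), and Cdh13 (0.817) and Efnb2 (0.773) least.

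The members seen together in single cells were counted with each cell thinned to 1000 UMIs, where an arterial-like cell showed at most 6. At that depth 77.2% of arterial-like cells in sham isotype, 67.9% in stroke isotype, 70.3% in anti-VCAM1 and 72.7% in anti-VLA4 had a UMI of any member, and 41.6%, 32.8%, 36.7% and 42.7% had UMIs of at least 2. Over all libraries the mean was 1.36 members per arterial-like cell and 0.336 per capillary-like cell. As a background, 0.867% of 6345 thinned microglia-like cells had a UMI of any member. Among the 28 pairs without the connexins, the pair seen together most often against the product of their shares in the 1653 thinned arterial-like cells was Gkn3 with Bmx, in 87 cells where that product gives 44.2. Gkn3 with Lypd1 was seen in 27 cells, where it gives 33.5. These counts have no test, and the pairs share cells and libraries.

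Stmn2 is best known from neurons, so other neuronal transcripts were set beside it. A list of 10 neuron genes without Stmn2 (Snap25, Syt1, Nrgn, Map1b and others) summed to 49.0 CPM in sham isotype, 50.7 in stroke isotype, 32.8 in anti-VCAM1 and 37.1 in anti-VLA4 over endothelial-like cells, with 4 of the 10 genes at 0 in sham isotype. In endothelial-like cells with a Stmn2 UMI (1960 cells) that sum was 30.4 CPM (27.4 to 33.7), and in those without (4695 cells) 42.1 CPM (39.3 to 45.0). Within arterial-like cells the intervals overlapped. There the sum was 29.2 CPM (25.5 to 33.3) in 1102 cells with a Stmn2 UMI and 32.1 CPM (25.8 to 39.4) in 559 without. The astrocyte-like cells, which also held Stmn2 (195 CPM in stroke isotype, 98.9 in anti-VCAM1, 174 in anti-VLA4), had the neuron list at 1356, 2120.5 and 1452 CPM. For Gja4, the pericyte list was higher in Gja4-positive endothelial-like cells of sham isotype (432 CPM in 12 cells against 119.9 CPM) and in anti-VCAM1 (318 CPM, 267 to 375, in 58 cells against 236 CPM, 227 to 245). It was 121 CPM in 13 cells against 131 CPM in stroke isotype and 253.3 CPM in 80 cells against 252.9 CPM in anti-VLA4. Over all libraries it was 278 CPM (248 to 310) against 226 CPM (221 to 231). Of the 163 positive cells 129 were arterial-like. Within arterial-like cells the list was at 282 CPM (250 to 317) against 263 CPM (253 to 273), with overlapping intervals. The part of pericyte RNA in the Gja4 level was not tested. Among the members Gja4 is also the one with the fewest UMIs after Gja5.

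Arterial-like cells made up 18.5% (15.4 to 22.0) of endothelial-like cells in sham isotype, 21.1% (18.1 to 24.5) in stroke isotype, 26.0% (24.2 to 27.8) in anti-VCAM1 and 26.1% (24.6 to 27.7) in anti-VLA4. These percentages depended on how cells were clustered and named, and ran over the 8 alternatives from 11.3% to 26.5%, 13% to 25.04%, 15.1% to 33.1% and 15.7% to 34.0% in the same order. The sham and stroke isotype shares overlapped, and the shares of both blockade libraries were higher than that of stroke isotype by 0.30 (0.06 to 0.53) and 0.31 (0.07 to 0.54) on the log2 scale. The point values of both stayed above 0 under all 8 other ways of defining the cells that were tried (0.19 to 0.43 and 0.19 to 0.56). Intervals under those alternatives are not given here, so whether they left out 0 is not stated. Stroke isotype over sham isotype (0.19, -0.14 to 0.52) ran from -0.26 to 0.22. The makeup of the arterial-like cells differed as well. Sub-cluster 6 held 16.7% of them in sham isotype (17 cells), 10.2% in stroke isotype (14 cells), 23.1% in anti-VCAM1 and 21.9% in anti-VLA4, and sub-cluster 3 held 61.8%, 63.5%, 44.4% and 47.8%. In sub-cluster 6 the nuclear RNA Malat1 was at 21202 and 22417 CPM in the isotype libraries and at 10044 and 8851 CPM in anti-VCAM1 and anti-VLA4, and a list of 14 stress and immediate early genes (Fos, Jun, Atf3 and others) was at 12031, 11172, 5329 and 6011 CPM. The part of these differences in the shares was not tested. Venous-like cells were 9.98% and 9.41% of endothelial-like cells in the isotype libraries and 3.77% and 4.3% in anti-VCAM1 and anti-VLA4.

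**Figure D3:**
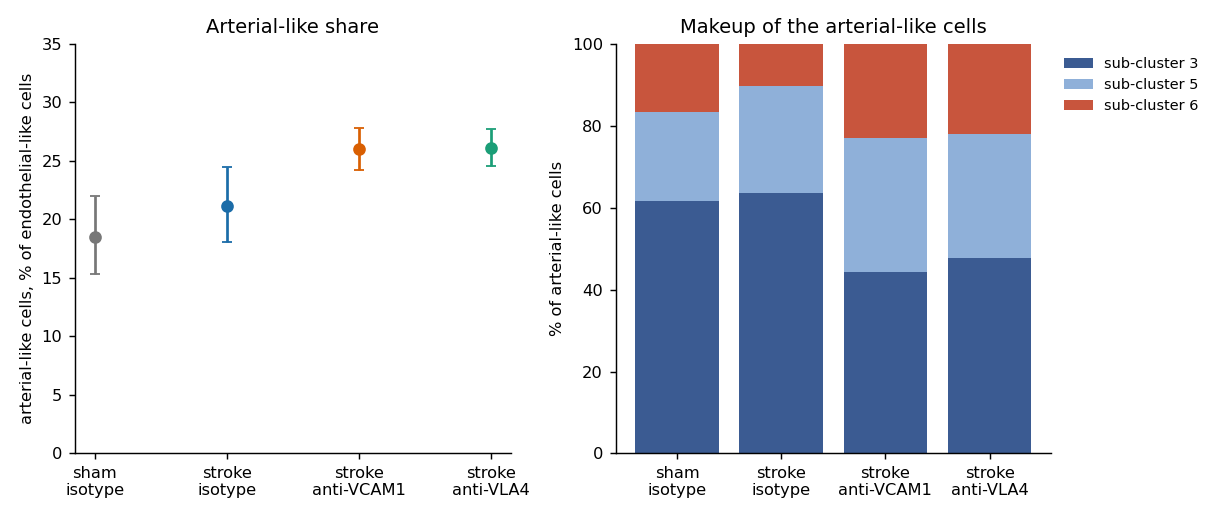
Left, arterial-like cells as a percentage of endothelial-like cells in each library, with exact binomial 95% intervals (18.5% in sham isotype to 26.1% in anti-VLA4). Right, the makeup of the arterial-like cells by sub-cluster, as stacked percentages; sub-cluster 6 is 10.2% in stroke isotype and 23.1% in anti-VCAM1.

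Stroke isotype was set against sham isotype first. Bmx was the member furthest apart in endothelial-like cells, at 50.5 CPM (42.2 to 60.04) in sham isotype and 72.2 CPM (62.7 to 82.7) in stroke isotype, a log2 ratio of 0.51 (0.19 to 0.84). No other member had an interval that left out 0, and none of the 9 measurable members passed 1.5-fold in either direction, where 4.91% of 10643 genes were at least 1.5-fold higher and 4.17% at least 1.5-fold lower. The median log2 ratio of the 9 members was -0.01, with -0.02 over all genes. Within arterial-like cells Bmx was 153 CPM in sham and 183 CPM in stroke isotype (0.26, -0.11 to 0.64), and Alpl was 236 and 292 CPM (0.31, 0.01 to 0.61). None of the 8 members measurable there passed 1.5-fold, against 7.47% of genes higher and 8.13% lower, and the median of the 8 was 0.19 with -0.01 over all genes. Thinning each cell to 1000 UMIs moved several of these ratios. That was a single random draw, and it left fewer UMIs of each gene. In arterial-like cells Alpl turned to -0.60 (-1.30 to 0.09) and Stmn2 went from -0.15 to -0.69 (-1.36 to -0.03). Sema3g went from 0.12 to 1.23 (-0.03 to 2.71) there, and from 0.03 to 1.02 (0.19 to 1.95) in endothelial-like cells. Without thinning, the mean Sema3g CPM of single endothelial-like cells under 5000 UMIs was 62.5 in sham and 59.9 in stroke isotype. In deeper cells it was 52.4 and 67.5. For Alpl in arterial-like cells these means were 391 and 295, and 211 and 293 in deeper cells. The part of the draw in the thinned ratios was not tested. With at least 1000 UMIs and at most 5% mitochondrial UMIs per cell, Bmx was 0.89 and Gkn3 0.75 in arterial-like cells, both past 1.5-fold. The stress and immediate early list was higher in arterial-like cells of sham isotype (5555 CPM) than in the 3 stroke libraries (3448 to 3734 CPM), and its part in these ratios was not tested.

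In capillary-like cells the same comparison gave 2 members past 1.5-fold, where 5.77% of genes were higher and 6.26% lower. Bmx was 14.2 CPM (8.90 to 21.5) in sham and 31.1 CPM (23.2 to 40.9) in stroke isotype, a log2 ratio of 1.08 (0.38 to 1.92). Cdh13 was 60.7 CPM (49.0 to 74.3) in sham and 20.7 CPM (14.4 to 29.0) in stroke isotype, a log2 ratio of -1.50 (-2.16 to -0.97), and sham stood above all 3 stroke libraries (26.3 CPM in anti-VCAM1, 21.0 CPM in anti-VLA4). One sham cell gave 31 of the 94 Cdh13 UMIs, and with that cell and the top stroke isotype cell set aside the levels were 40.9 and 18.4 CPM. Among capillary-like sub-clusters of at least 50 cells, Cdh13 was highest in sub-cluster 0, at 28.4% of its highest level. Sub-cluster 0 held 241 of 371 capillary-like cells in sham isotype. It held 223 of 419 in stroke isotype, 388 of 1565 in anti-VCAM1 and 354 of 2024 in anti-VLA4. The part of this makeup in the Cdh13 levels was not tested.

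Each blockade library was then set against stroke isotype. Both comparisons share the stroke isotype library, so a low or high value there enters both. Gkn3 was the member that stood apart. In endothelial-like cells it was at 71.3 CPM (61.3 to 82.4) in sham isotype, 80.5 CPM (70.5 to 91.6) in stroke isotype, 127 CPM (121 to 134) in anti-VCAM1 and 154 CPM (148 to 159.8) in anti-VLA4. The isotype libraries overlapped, and both blockade libraries lay above them. The log2 ratio to stroke isotype was 0.65 (0.46 to 0.87) in anti-VCAM1 and 0.92 (0.74 to 1.13) in anti-VLA4. These intervals take each UMI as independent, while a small part of the cells gave much of the Gkn3 sum, as given below. They are thus too narrow for the sampling of cells. Gkn3 was the only member of the 9 past 1.5-fold in either comparison, where 2.86% of 11869 genes were higher and 8.26% lower in anti-VCAM1, and 3.02% of 12177 higher and 9.20% lower in anti-VLA4. The median log2 ratio of the 9 members was 0.14 and 0.07, with -0.06 and -0.08 over all genes.

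Within arterial-like cells Gkn3 was at 222 CPM (188 to 261) in sham isotype, 231 CPM (199 to 266) in stroke isotype, 332 CPM (314 to 350.0) in anti-VCAM1 and 405 CPM (387 to 422) in anti-VLA4. The log2 ratios to stroke isotype were 0.52 (0.30 to 0.75) and 0.81 (0.59 to 1.03), so a difference was also present within the arterial-like cells. Held at the zone makeup of stroke isotype, the endothelial ratios were 0.42 and 0.81, and held at its arterial sub-cluster makeup the arterial-like ratios were 0.36 and 0.59. In capillary-like cells Gkn3 was 22.6 CPM in stroke isotype, 20.4 CPM in anti-VCAM1 and 34.9 CPM in anti-VLA4, past 1.5-fold higher in anti-VLA4 (0.61, 0.14 to 1.16), where 5.40% of genes were, while Bmx was past it lower (-0.60, -1.08 to -0.15), as were 12.4% of genes. In anti-VCAM1 no member passed 1.5-fold in capillary-like cells, where 5.24% of genes were higher and 10.1% lower. A list of 9 pericyte genes was at 127 and 130 CPM over endothelial-like cells of the isotype libraries and at 239 and 253 CPM in anti-VCAM1 and anti-VLA4, with none of the 9 at 0 in any library. Within arterial-like cells it was at 249.1, 194, 262 and 280.0 CPM in the order of the libraries above, and its part in the Gkn3 level was not tested.

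The share of cells with a Gkn3 UMI was close between libraries at equal depth. At 1000 UMIs per cell, 19.8% of arterial-like cells in sham isotype, 17.9% in stroke isotype, 18.1% in anti-VCAM1 and 20.3% in anti-VLA4 had a Gkn3 UMI, and the log2 ratio from thinned cells was -0.046 (-0.47 to 0.40) in anti-VCAM1, with 0.20 (-0.21 to 0.63) in anti-VLA4. Thinning gives each cell the same weight, while the summed level weights cells by their depth. Split at 5000 UMIs, arterial-like cells under that depth carried Gkn3 at 635 CPM (509 to 783) in sham isotype, 550.4 CPM (454 to 661) in stroke isotype, 413 CPM (376 to 454) in anti-VCAM1 and 566 CPM (525 to 609) in anti-VLA4. Deeper arterial-like cells carried it at 116 CPM (88.7 to 148) in sham isotype, 121 CPM (95.3 to 152) in stroke isotype, 301 CPM (282 to 322) in anti-VCAM1 and 353 CPM (335 to 372) in anti-VLA4. Among arterial-like cells the blockade libraries were higher in the deeper cells, by log2 ratios of 1.31 (0.97 to 1.68) and 1.53 (1.20 to 1.90), and in the shallower cells the ratios were -0.41 (-0.71 to -0.10) and 0.04 (-0.25 to 0.34). Over all endothelial-like cells the ratios were 1.36 (1.06 to 1.71) and 1.49 (1.20 to 1.84) in the deeper cells, and in the shallower cells -0.05 (-0.31 to 0.23) in anti-VCAM1 and 0.43 (0.18 to 0.70) in anti-VLA4, so anti-VLA4 was higher at both depths there. A turn also showed between sub-clusters. In sub-cluster 3, with the deepest arterial-like cells, Gkn3 was 129.9, 176, 286 and 336 CPM in the order of the libraries above. In sub-cluster 6 it was 953, 1062, 580.0 and 851 CPM, from 17 and 14 cells in the isotype libraries. Sub-cluster 6 was not the shallowest, with a median of 4686 UMIs per cell against 4087 in sub-cluster 5. Its median was 3419, 3234, 4668 and 4891 UMIs in the same order, so depth and sub-cluster are not separate views of these cells. Cells with many Gkn3 UMIs gave much of the sum. Arterial-like cells with at least 10 Gkn3 UMIs numbered 5 of 33 positive cells in sham isotype, 6 of 48 in stroke isotype, 39 of 208 in anti-VCAM1 and 66 of 306 in anti-VLA4, and gave 44.7%, 39.7%, 61.6% and 64.6% of the arterial-like Gkn3 UMIs. With the top cell of each library set aside, the summed levels in arterial-like cells were 199.7, 211, 311 and 394 CPM.

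**Figure D4:**
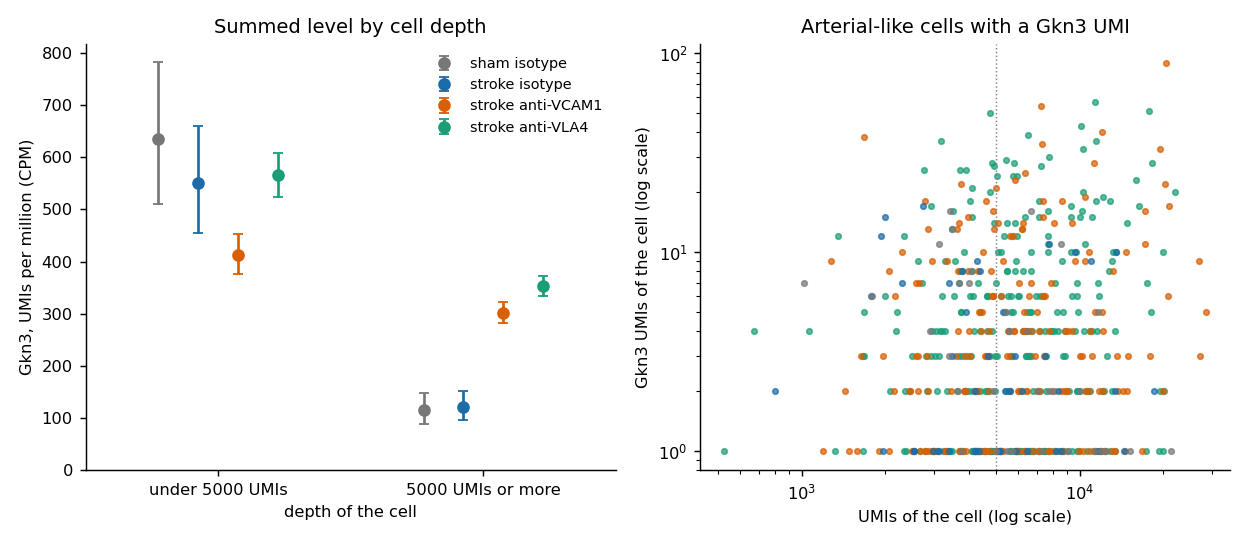
Left, Gkn3 in arterial-like cells (y axis, CPM, starting at 0) for cells under 5000 UMIs and of 5000 UMIs or more, with exact Poisson 95% intervals by library. Right, arterial-like cells with a Gkn3 UMI, by the UMIs of the cell and its Gkn3 UMIs (both axes log). Libraries differ in the deeper cells (116 and 121 CPM in the isotype against 301 and 353 CPM in the blockade libraries).

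Stmn2 was highest in anti-VLA4 in both populations. In arterial-like cells it was at 476 CPM (425 to 531) in sham isotype, 429.9 CPM (386 to 477) in stroke isotype, 449 CPM (429 to 471) in anti-VCAM1 and 540.3 CPM (520.4 to 561) in anti-VLA4. Stroke isotype was the lowest library there, and the intervals of sham isotype and anti-VLA4 overlapped. Anti-VLA4 over stroke isotype was 0.33 (0.17 to 0.49), below 1.5-fold, and was 0.32 (0.14 to 0.51) in cells of 5000 UMIs or more and 0.35 (0.02 to 0.70) in shallower cells, so that, unlike for Gkn3, it held at both depths. Anti-VCAM1 over stroke isotype was 0.06 (-0.10 to 0.23) in arterial-like cells. Over all endothelial-like cells the ratios were 0.19 (0.06 to 0.33) in anti-VCAM1 and 0.40 (0.27 to 0.53) in anti-VLA4. Held at the zone makeup of stroke isotype they were 0.04 and 0.29. At 1000 UMIs per cell, 28.7%, 19.4%, 29.7% and 36.4% of arterial-like cells had a Stmn2 UMI in the order of the libraries above. The thinned ratios, from a single random draw, were larger, at 0.63 (0.13 to 1.17) in anti-VCAM1 and at 1.06 (0.58 to 1.59) in anti-VLA4. Without thinning, the mean Stmn2 CPM of single arterial-like cells under 5000 UMIs was 588, 427, 426 and 524 in the same order. In deeper cells it was 481, 431, 489 and 566. The part of the draw in the thinned ratios was not tested.

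Cdh13 went the other way in arterial-like cells. It was at 215 CPM (181 to 253) in sham isotype, 265 CPM (231 to 303) in stroke isotype, 189 CPM (175 to 203) in anti-VCAM1 and 191 CPM (179.6 to 204) in anti-VLA4. Stroke isotype was the high library, sham isotype overlapped all others, and the log2 ratios to stroke isotype were -0.49 (-0.71 to -0.27) and -0.47 (-0.68 to -0.25), short of 1.5-fold. With the top cell of each library set aside, the levels were 170.0, 231, 182 and 186 CPM. Over all endothelial-like cells the ratios were only -0.11 (-0.31 to 0.09) and -0.20 (-0.40 to -0.01).

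Lypd1 was higher in the blockade libraries over all endothelial-like cells. There it was 47.4 CPM in sham isotype, 47.2 in stroke isotype, 59.7 in anti-VCAM1 and 58.8 in anti-VLA4, with log2 ratios of 0.33 (0.07 to 0.61) and 0.31 (0.06 to 0.59), and within arterial-like cells it was 130.5, 129.5, 137 and 137 CPM, with ratios of 0.08 (-0.22 to 0.39) in both. That closeness depended on which cells were called arterial-like: at clustering resolution 2 the ratios were 0.90 (0.44 to 1.41) and 0.77 (0.32 to 1.28), and with cells named one by one 0.89 (0.45 to 1.37) and 0.84 (0.41 to 1.32), all past 1.5-fold. The remaining members lay close together. In arterial-like cells Sema3g ran from 116 to 129.6 CPM, Efnb2 from 69.7 to 95.3, Bmx from 153 to 189 and Alpl from 236 to 292 over the 4 libraries, and the intervals of their blockade ratios included 0. Those intervals leave room for differences of up to about 0.5 on the log2 scale in Efnb2 (-0.23 to 0.52 for anti-VCAM1). Gja4 was at 16.3, 9.77, 13.9 and 15.2 CPM in arterial-like cells, from 8 UMIs in stroke isotype, and its anti-VLA4 ratio passed 1.5-fold with an interval across 0 (0.59, -0.41 to 1.90). With Gkn3 that made 2 of 9 members at least 1.5-fold higher in arterial-like cells of anti-VLA4, where 7.54% of 10503 genes were higher and 8.11% lower, and 0 of 9 in anti-VCAM1, where 7.12% were higher and 7.88% lower.

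**Figure D5:**
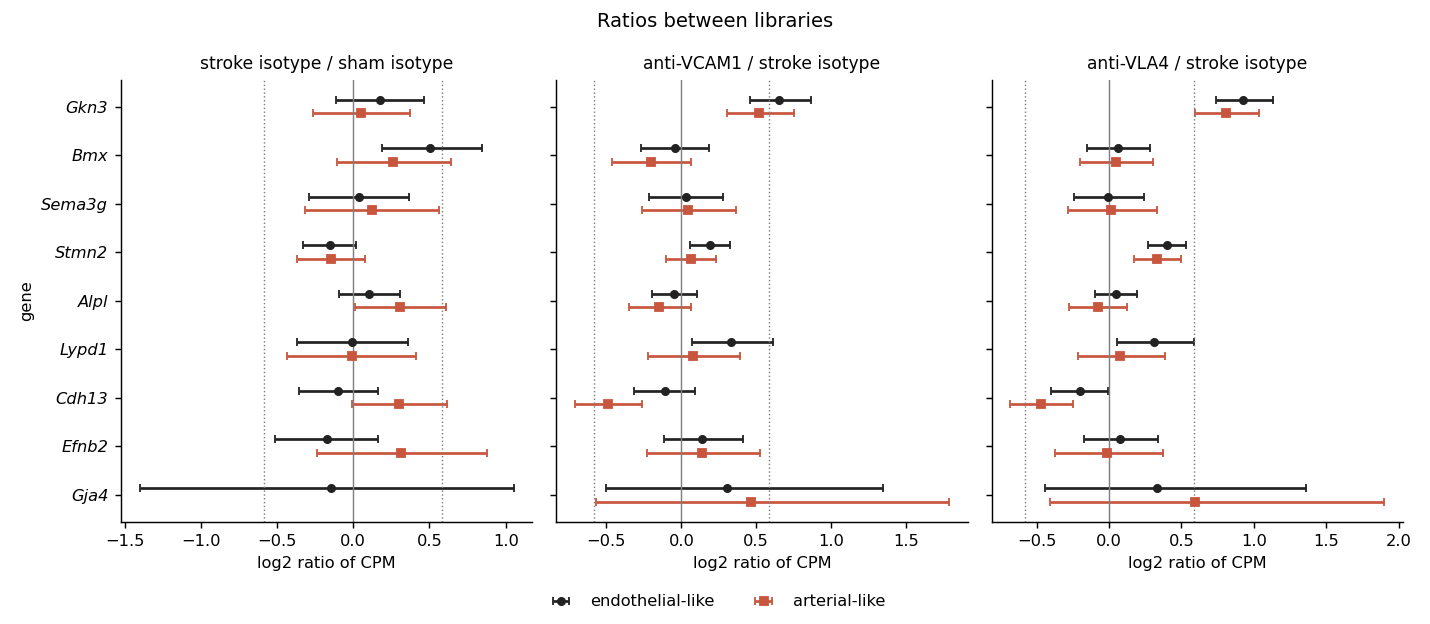
Log2 ratio of CPM between libraries (x axis) for 9 arterial genes (rows) in endothelial-like cells (circles) and arterial-like cells (squares), with conditional binomial 95% intervals. Dotted lines mark 1.5-fold; a gene with under 20 UMIs over the 2 libraries is not drawn. Gkn3 lies to the right in both blockade comparisons and Cdh13 to the left in arterial-like cells.

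A wider list of 28 arterial genes (Notch ligands and receptors, SoxF and Hey factors, matrix genes) gave the setting for the members. Most of the markers that named the arterial-like cells are also on this list. In endothelial-like cells 1 of 26 measurable genes was at least 1.5-fold higher and 4 lower in stroke over sham isotype. Over all genes 4.91% were higher and 4.17% lower. In anti-VCAM1 1 was higher and 3 lower of 27, against 2.86% and 8.26% of all genes. In anti-VLA4 3 were higher and 2 lower of 26, against 3.02% and 9.20%. The median log2 ratios of the list were -0.15, -0.04 and -0.07. The counts of the list include genes of few UMIs, such as Cytl1 (22 UMIs in stroke isotype). Cytl1 was lowest in both blockade comparisons (-1.45 and -1.04) and highest in stroke (0.60, -0.38 to 1.85). The genes named next were picked among those with at least 100 UMIs over the 2 libraries. Among these, Sox18, a SoxF transcription factor of endothelium, was furthest from 0 in each comparison. It was at 423 CPM in sham isotype, 162 in stroke isotype, 435 in anti-VCAM1 and 410.0 in anti-VLA4, low only in stroke isotype, with log2 ratios of -1.38 (-1.55 to -1.23), 1.42 (1.29 to 1.57) and 1.34 (1.21 to 1.48). In arterial-like cells Sox18 was 535, 172, 501 and 442 CPM. The matrix gene Mgp was next lowest in stroke (154 CPM in sham, 94.0 CPM in stroke isotype, with 185 and 134 UMIs in the highest single cell), and Clu (-0.76) and Nrp1 (-0.42) were lowest in anti-VCAM1 and Eln (-0.63) and Jag1 (-0.24) in anti-VLA4. The highest were Clu (0.54) and Hes1 (0.45) in stroke, and, after Sox18, Vegfc (0.55) in anti-VCAM1 and Hey1 (0.68, 63.5 CPM in stroke isotype and 102 CPM in anti-VLA4). In arterial-like cells the Notch ligand Dll4, itself a marker that named these cells, was 63.8, 47.6, 81.2 and 86.7 CPM. That was 0.76 (0.29 to 1.29) and 0.85 (0.39 to 1.38) above stroke isotype in anti-VCAM1 and anti-VLA4. Of the list, 26 genes were measurable there in each comparison. In stroke over sham isotype 0 were at least 1.5-fold higher and 6 lower, against 7.47% and 8.13% of all genes. In anti-VCAM1 2 were higher and 3 lower, against 7.12% and 7.88%. In anti-VLA4 4 were higher and 2 lower, against 7.54% and 8.11%.

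Of the partners of the members, the neuropilin Nrp2, a semaphorin receptor of veins, was 68.2, 55.9, 33.9 and 33.7 CPM over endothelial-like cells in the order of the libraries, or -0.70 (-0.99 to -0.45) and -0.71 (-0.99 to -0.47) in anti-VCAM1 and anti-VLA4, beside the smaller share of venous-like cells in those libraries given above. Nrp1 was 283 CPM in stroke isotype, 211 in anti-VCAM1 and 243 in anti-VLA4. Plxnd1 (the plexin that binds semaphorins of this class), the venous EphB4 gene Ephb4 and the connexin gene Gja1 had blockade ratios in endothelial-like cells between -0.12 and 0.04, with intervals across 0. Gja1 was higher in stroke than in sham isotype (18.4 and 27.8 CPM, 0.57, 0.06 to 1.14).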

How the data were processed

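Droplet 3' libraries (Chromium v3.1) yielded the deposited UMI counts, 1 matrix of genes by cell barcodes per library. Per the file headers, the software was Cell Ranger 7.0.1. The submitters' processing notes name Cell Ranger 6.0.0, Seurat 4.3.0.1 and the builds mm10 and GRCh38; which applied to these counts, and whether strand or introns were counted, is not given in the sources used here. The smallest barcode total was 500 to 510 UMIs. The members and gene lists were chosen with earlier results of these data known.

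Cells with at least 500 UMIs, 200 genes and at most 10% mitochondrial UMIs were kept. Scrublet (expected rate 0.05) marked 9, 24, 58 and 124 doublets (0.590%, 0.840%, 1.23% and 1.96%), which were left out. Cells were clustered without the members (scanpy 1.11.5, leidenalg 0.10.2, 2000 variable genes, 30 components, 15 neighbours, resolution 1), and endothelial-like cells again. Clusters were named from marker lists with at least 3 markers detected; folds were taken against cells of other candidate classes, a choice made with the clusters in view. Clusters 14 and 15 and endothelial sub-clusters 9, 10 and 12 stayed unnamed.

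Counts were summed per population and library as CPM. Intervals are exact Poisson (CPM), Clopper-Pearson (shares), conditional binomial (log2 ratios, pseudocount 1 CPM in the ratio only) and, for ratios of shares, a normal interval of the log ratio, all at 95%. They cover counting error only: with 1 library per group there is no test across samples and no p-value. Each UMI is taken as independent, so for a gene whose UMIs gather in few cells they are too narrow for the sampling of cells. A gene was measurable with 20 UMIs over the 2 libraries. Named genes were the members, the 10 most similar genes of at least 200 endothelial UMIs, the 2 highest and 2 lowest of the wider list with at least 100 UMIs over the 2 libraries, and fixed partner and quality genes; Dll4 is among those of arterial-like cells. Gene scripts were tested on simulated Poisson counts, which hold no gathering of UMIs in cells. TMM factors came from edgeR 4.0.16 as an alternative.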

Additional observations from a re-analysis of the deposited data

How the results depend on the processing

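Each ratio and share was recomputed under 10 alternatives chosen at the start and 4 added after seeing the data (shared barcodes left out, unnamed endothelial sub-clusters left out, zone or arterial sub-cluster makeup held at that of stroke isotype); the split at 5000 UMIs was also added then. Of 814 such values, 744 lay within the counting interval of the value as reported or, for medians of the members, within the range described below. Another 68 lay outside, and 2 reversed a ratio whose interval left out 0. The 744 include single-gene ratios that could not move, because the limit of 100 UMIs over the 2 libraries reuses the same counts. A pseudocount of 5 CPM reuses them as well, so the tally is no measure of stability. Both reversals came with cells thinned to 1000 UMIs, in arterial-like cells: Gkn3 in anti-VCAM1 over stroke isotype (-0.046) and Alpl in stroke over sham isotype (-0.60). That thinning was a single random draw. The arterial-like share in anti-VLA4 over stroke isotype was 0.56 at clustering resolution 0.5, and that in stroke over sham isotype was -0.26 when cells were named one by one from their markers; the cause was not tested. For the median of the members, the range used ran from the median of the single-gene lower bounds to the median of the upper bounds. In arterial-like cells of anti-VCAM1 over stroke isotype it was -0.26 to 0.36, and the alternatives gave medians from -0.11 to 0.14. The medians stayed within this range under every alternative. It is not a counting interval of the median, so no conclusion on the stability of the median is drawn from it. Gkn3 in endothelial-like cells ranged from 0.06 to 0.78 for anti-VCAM1 and from 0.43 to 1.07 for anti-VLA4, lowest when thinned and highest with TMM factors. Bmx in stroke over sham isotype ranged from 0.20 (thinned) to 0.94 (at least 1000 UMIs and at most 5% mitochondrial). Cdh13 in arterial-like cells ranged from -0.60 to -0.30 for anti-VCAM1 and from -0.78 to -0.32 for anti-VLA4. No paired analysis was possible because each group is 1 library with no replicate number, and for the same reason no replicate could be left out. Depth limits Gja4 and Gja5, with 336 and 16 UMIs.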

Other observations

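Bmx was also read outside the endothelium, in the unnamed cluster 15 (251 cells led by Cd209a and MHC class II genes), at 29.5 CPM in sham isotype, 12.3 in stroke isotype and 31.9 in anti-VCAM1, with at most 8 of its UMIs in 1 cell. One pericyte-like cell of anti-VCAM1 held 85 of the 102 Gkn3 UMIs of its class, so the class level of 250.5 CPM there rests on that cell. The unnamed endothelial sub-cluster 9 (221 cells, median 954 UMIs) carried 8 of the 9 measured members, from Stmn2 at 46.0% and Sema3g at 45.3% of their highest sub-cluster down to Cdh13 at 5.47%, with Gja4 at 0.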
